A study of Mus musculus with 31 samples.

Results

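Messenger RNAs from newborn mouse neocortex were compared between 2 pools of a sucrose gradient, the polysome pool and the monosome pool. The 6 libraries described here, 3 per pool, came from wild-type (WT) neocortex at postnatal day 0 (P0) and were chosen by genotype, age and RNA fraction out of the 31 libraries of the series. The other libraries held total RNA of the same age, WT neocortex at embryonic day 13 (E13), and neocortex of both ages labelled HuR cKO, a conditional knockout of the RNA-binding protein HuR. Beside the 6, use was made of 3 total RNA libraries of WT P0, 2 polysome and 2 monosome libraries of WT E13, and 3 polysome and 2 monosome libraries of HuR cKO P0. The sources used here name neither the strain, the Cre driver nor the number of animals behind a library, so p-values measure the spread between libraries. Lysates were made with a mild detergent and cycloheximide, which holds ribosomes on mRNA, and were separated into 14 fractions. Fractions 9, 10, 11 and 12 made up the polysome pool. Fractions 4, 5, 6 and 7, which hold ribosomal subunits and single ribosomes, made up the monosome pool, so an mRNA there may carry 1 ribosome, a subunit or none. Poly(A) RNA was sequenced, and the deposited values are FPKM, fragments scaled to transcript length and library size. FPKM gives an mRNA's share within its own pool and not the amount of RNA in that pool.

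An mRNA that is read by several ribosomes at once sediments deep in a sucrose gradient, and one that carries a single ribosome or none stays near the top. The number of ribosomes on an mRNA depends on how often translation starts and on the length of the coding sequence, since a short coding sequence has little room. Messenger RNAs of ribosomal proteins and of many translation factors begin with a 5′ terminal oligopyrimidine (TOP) tract, a run of C and T that opens with C. Through this tract, mTOR signalling and LARP1 regulate how far they enter polysomes. Around birth, neocortical neurons extend axons and dendrites and build their first synapses.

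Bases at an annotated start are shown for 3 such mRNAs that lay towards the monosome pool and 2 mRNAs towards the polysome pool. The starts shown for Rps12 and Psmd2 lie inside the gene spans given below, so those genes also extend upstream of them. All are RefSeq starts on GRCm38.p6, written 5′ to 3′ on the strand of the gene. Capitals mark the first run of at least 6 bases that opens with C and holds only C and T.
Rps12, lower in polysomes, chr10:23787180-23787209, minus strand: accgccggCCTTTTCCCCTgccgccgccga
Rpl12, lower in polysomes, chr2:32961712-32961741, plus strand: gtCTTTTCggctttcggctcggaggaggca
Eef2, lower in polysomes, chr10:81176631-81176660, plus strand: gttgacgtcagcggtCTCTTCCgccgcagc
Rpl26, higher in polysomes, chr11:68901566-68901595, plus strand: agaaccggaagtcgcgtgtagttCTCTTTC
Psmd2, higher in polysomes, chr16:20651652-20651681, plus strand: ggCCTTCTgggaaaaggggcggtgcgagca
The run stood at base 9 in Rps12, base 3 in Rpl12, base 16 in Eef2, base 24 in Rpl26 and base 3 in Psmd2, so an annotated start can lie before a tract. Of genes whose letters are not shown, Rpsa, lower in polysomes, had a run at base 22 and Psma2, higher in polysomes, at base 20. A run of this kind, searched on the transcribed strand, was in the first 30 bases of 20.3% of 32851 RefSeq starts, and its presence is a description of these letters only. A start was matched for 79.2% of the genes tested, too few for a comparison of genes with and without a tract, which is void for that reason.

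Differences between pools were spread over most of the transcriptome. Of 12123 genes tested, 4793 (39.5%) were higher and 2462 (20.3%) were lower in polysome than in monosome RNA, 59.8% in all, at an adjusted p under 0.05 by limma on log2(FPKM + 1). The central genes differed little, with a median log2 fold change of 0.30 and 25th and 75th percentiles of -0.36 and 0.96. The lower side reached further: 103 genes were more than 8-fold lower and 9 more than 8-fold higher, while 1508 and 2880 were more than 2-fold lower and higher. The deposited libraries were not centred alike. Rescaling each library by its median ratio brought the median to 0.04 and split the calls into 3577 higher (29.5%) and 3250 lower (26.8%). No gene was called in opposite directions under both scalings, and 6038 were called in the same direction. Every log2 fold change below is on the deposited scale unless stated, and one near 0.30 is at the middle of all genes. Library sums of FPKM ran from 391659 to 435546 in polysome and from 563032 to 608742 in monosome RNA, and 16117 to 16585 genes had a value above 0. The depth in fragments is not given. Low FPKM values step in units of 1 fragment, and the size of that step, set against polysome library 2, ran from 0.9213 to 1.226 over 5 of the 6 libraries. For monosome library 1 it could not be determined.

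**Figure D1:**
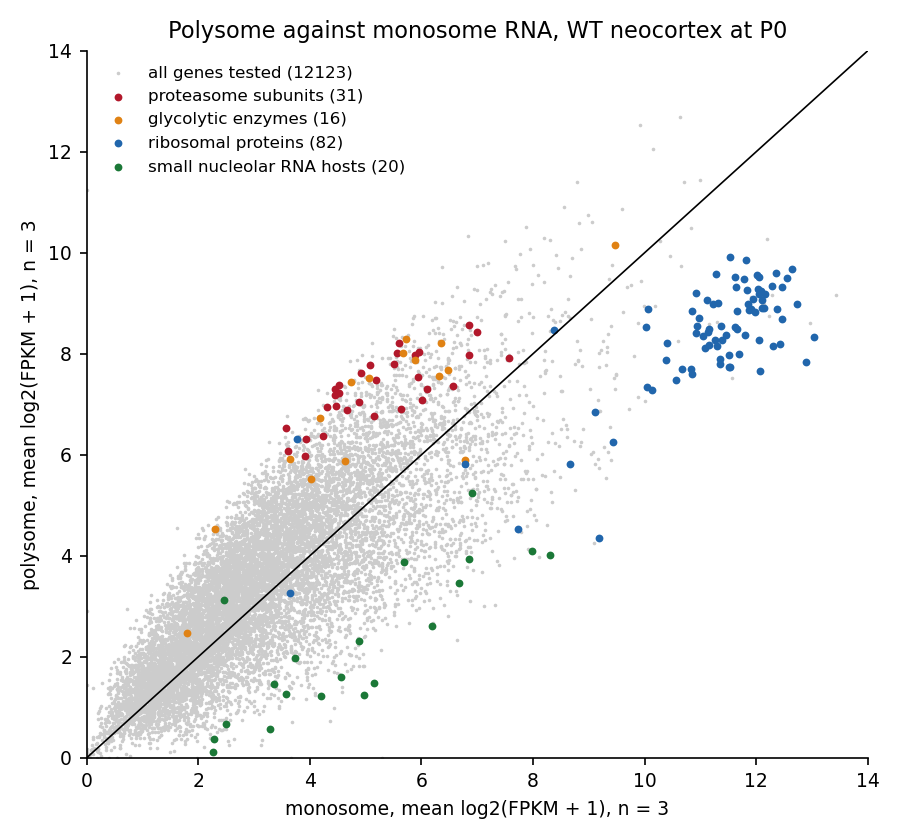
Mean log2(FPKM + 1) of the 3 polysome libraries (vertical) against that of the 3 monosome libraries (horizontal) for the 12123 genes tested, with the line of equal values. Most of the 82 ribosomal protein genes and 20 small nucleolar RNA hosts lie below the line, and the 31 proteasome genes lie above it.

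Before the gene groups, 2 features of the libraries bear on some of them. In the polysome pool, mRNAs of membrane and secreted proteins took a larger share of summed FPKM in library 0 and a smaller one in library 2, described below with those groups. Total RNA shares of guidance receptors and ER genes, given there too, fell in the same order of library numbers. Markers of neocortical neurons were detected as the tissue label says, with 10 of 10 at 1 FPKM or more in every library and a sum of 2618 to 3212 FPKM in polysome and 1197 to 1236 FPKM in monosome RNA. Choroid plexus markers varied widely within both pools, with sums of 32.8 to 484 FPKM in polysome and 19.6 to 755 FPKM in monosome libraries and 1 of 3 markers at 1 FPKM or more in every library. Red cell markers summed to 87.5 to 298 FPKM in polysome and 95.3 to 323 FPKM in monosome libraries, with sums that overlapped. In these bulk samples, fewer cells of a type and less RNA per cell cannot be told apart.

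Ribosomal protein mRNAs took the largest share of the monosome pool among the gene lists examined and a far smaller one of the polysome pool. The 82 genes took 6.93, 8.26 and 9.23% of summed FPKM in polysome libraries 0, 1 and 2, against 40.1, 44.2 and 42.8% in monosome libraries 0, 1 and 2. Total RNA lay between the pools, at 19.9, 18.8 and 20.2%. The exact permutation p was 0.1, the smallest that 3 against 3 libraries allow. Rps12, a protein of the small subunit (chromosome 10, 23785183 to 23787383, GRCm38, minus strand), measured 198, 213 and 284 FPKM in the polysome libraries, against 6759, 8001 and 8058 FPKM in the monosome libraries. All monosome values stood above all polysome values, and the log2 fold change was -5.04 ± 0.35 (SE; adjusted p = 5.52e-08). Members varied between themselves. Among the first listed, the small subunit gene Rps2 had -2.05 ± 0.32 and Rpsa, the laminin receptor, -3.12 ± 0.32, while the large subunit genes Rpl3 and Rplp0 had -2.31 ± 0.26 and -3.70 ± 0.29. The list medians were -2.97 for 33 small subunit and -2.85 for 49 large subunit genes, beside 0.30 over all genes. Rpl26 was called in the opposite direction, and 2 large subunit genes were not called.
It measured 74.2, 70.5 and 91.6 FPKM in the polysome libraries, against 19.4, 10.4 and 9.83 FPKM in the monosome libraries, and its log2 fold change was 2.54 ± 0.30 (adjusted p = 3.8e-06). Ribosomal protein genes have many processed pseudogenes and the kit keeps no strand, so reads may have been shared among copies. Values of all members, Rpl26 and Rps12 among them, are uncertain for that reason, and such sharing was not tested. In each fit without 1 of the 6 libraries, 46 large and 33 small subunit genes were lower.

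Other TOP mRNAs encode translation factors and binding proteins. Of 22 tested, 16 were lower and 3 higher in polysome RNA (1 higher after rescaling), with a median of -1.56. Tpt1, which encodes the translationally controlled tumour protein, measured 488, 593 and 639 FPKM in the polysome libraries, against 9398, 12618 and 11472 FPKM in the monosome libraries, a log2 fold change of -4.28 ± 0.30 (adjusted p = 5.65e-08). It was among the most abundant mRNAs of the monosome pool. The poly(A) binding proteins moved the same way: Pabpc1 measured 43.7, 50 and 42.4 FPKM in the polysome libraries, against 590, 603 and 709 FPKM in the monosome libraries (-3.78 ± 0.25), and its relative Pabpc4 had a log2 fold change of -2.50 ± 0.19. The elongation factor Eef2, which moves the ribosome along the mRNA, measured 423, 283 and 506 FPKM in the polysome libraries, against 2827, 1940 and 2865 FPKM in the monosome libraries (-2.67 ± 0.28, adjusted p = 1.17e-06). The 3 members called higher were Eef1a1, Eef1d and the import receptor Ipo5. Eef1d (0.96 ± 0.25) and Ipo5 (0.56 ± 0.16) lost their calls after rescaling, at 0.63 and 0.23. Eef1a1 was listed at 0 in all 3 monosome libraries and at 2447, 2578 and 2251 FPKM in the polysome libraries, beside a mean of 6518 ± 638 FPKM in total RNA (SD, n = 3). A value of 0 there may be a failed estimate, so no fold change is given for it.

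**Figure D2:**
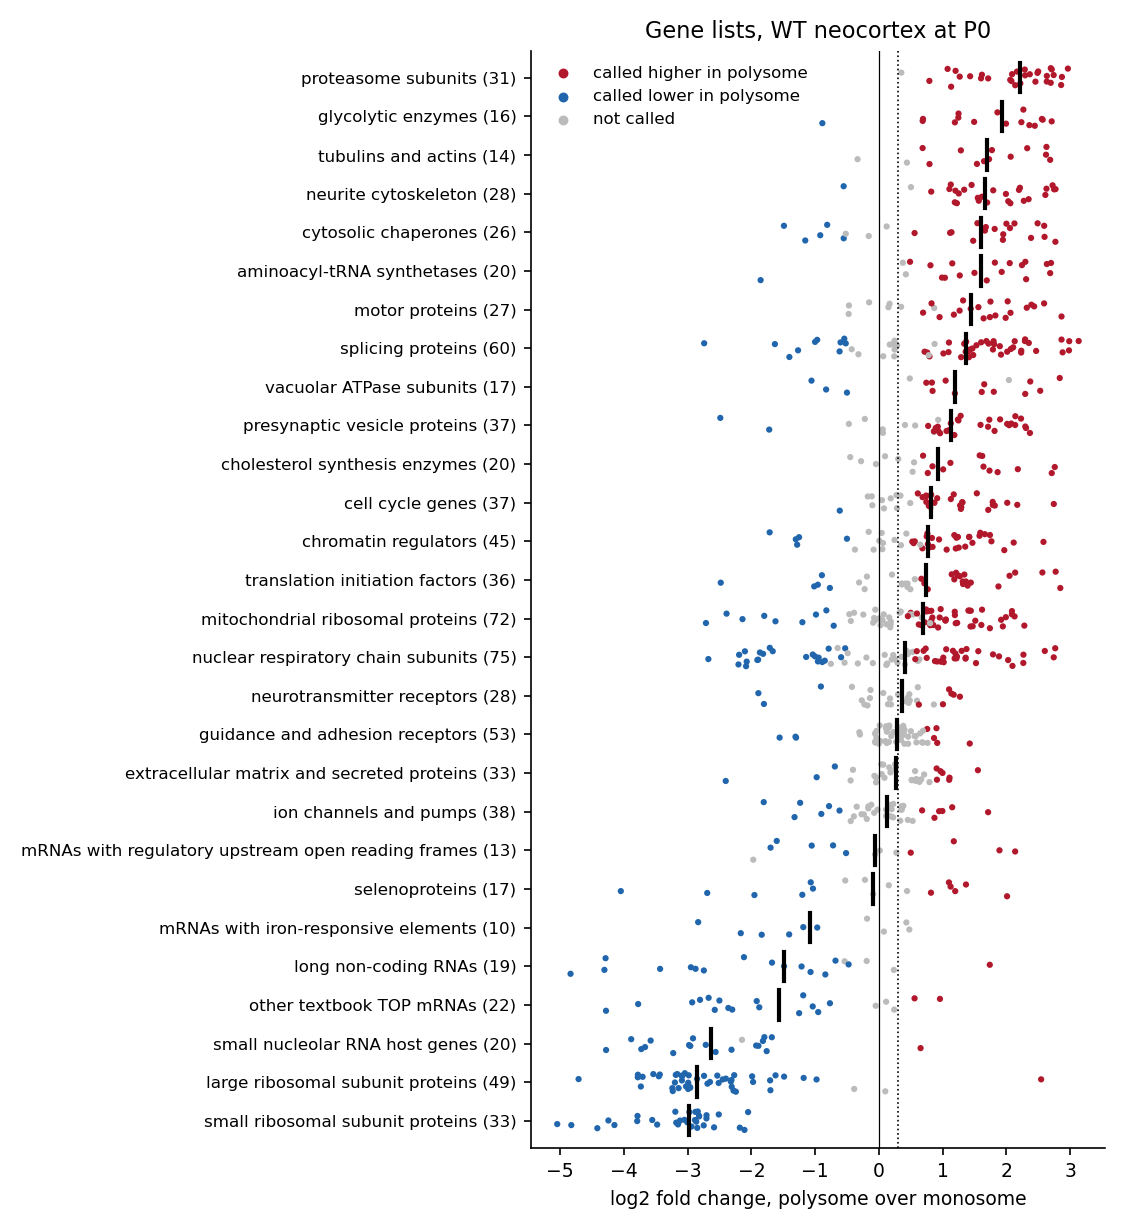
Log2 fold change of polysome over monosome RNA for each tested member of 28 gene lists (number tested in brackets), red where called higher, blue where called lower and grey where not called. Black bars are list medians, the solid line is 0 and the dotted line is the median of all genes, 0.30. Eef1a1 is not drawn.

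Of 36 initiation factor genes, 20 were higher (55.6%, against 39.5% of all genes) and 5 lower (13.9%, against 20.3%) (17 and 6 after rescaling), median 0.74. The first listed, the cap-binding protein Eif4e, measured 74.8, 101 and 83.8 FPKM in the polysome libraries, against 32.9, 35.3 and 33.7 FPKM in the monosome libraries (1.31 ± 0.19, adjusted p = 2.27e-05). The scaffold Eif4g1 was not called, at 0.36 ± 0.17 (adjusted p = 0.0727). Eif6, which keeps the large subunit from joining too early, was higher (2.56 ± 0.25), and so was Eif3b (2.77 ± 0.22), a subunit of the factor that binds the small ribosomal subunit. Eif3m, another subunit of the same factor, was lower (-1.01 ± 0.23). Lower too were Eif4e3, a relative of the cap-binding protein (-0.96 ± 0.19), and Eif4ebp2, the brain form of the repressor that binds Eif4e, with 14.7, 14.8 and 15.5 FPKM in the polysome libraries, against 92.3, 86.6 and 85.6 FPKM in the monosome libraries (-2.48 ± 0.20).
Aminoacyl-tRNA synthetases, the enzymes that load amino acids onto tRNA, lay towards polysomes in 17 of 20 cases (15 after rescaling; median 1.59). Aars, for alanine, measured 33.5, 30.4 and 33.7 FPKM in the polysome libraries, against 5.23, 5.97 and 7.17 FPKM in the monosome libraries (2.24 ± 0.16). Hars and Yars, for histidine and tyrosine, had log2 fold changes of 2.70 ± 0.21 and 2.63 ± 0.21. Qars, for glutamine, was the single member called lower, with 15.8, 13.3 and 14.8 FPKM in the polysome libraries, against 60, 47.4 and 59.7 FPKM in the monosome libraries (-1.85 ± 0.18, adjusted p = 5.46e-07). Its 2 groups did not overlap.

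Of 31 proteasome subunits, 30 were higher and none lower (29 and 0 after rescaling), against 39.5% higher over all genes, and the median was 2.22. Their share of summed FPKM was 1.29, 1.35 and 1.36% in the polysome libraries, against 0.258, 0.249 and 0.262% in the monosome libraries. Psmd2, a base subunit of the regulatory particle (chromosome 16, 20651122 to 20663414, GRCm38), measured 163, 154 and 154 FPKM in the polysome libraries, against 18.5, 20.3 and 23.7 FPKM in the monosome libraries (2.86 ± 0.17, adjusted p = 4.97e-08). The regulatory ATPase Psmc5 and the lid subunits Psmd3 and Psmd12 had 2.87 ± 0.23, 2.96 ± 0.31 and 2.49 ± 0.20, and the core ring subunits Psma1 and Psma2 1.60 ± 0.20 and 2.09 ± 0.19. Only Psmb1, at 0.35, was not called; it is named after its value was seen.
A list of chaperones, cytosolic but for the mitochondrial Hspe1 named below, split. Of 26 genes, 18 were higher (69.2%) and 5 lower (19.2%, against 20.3% of all genes), median 1.60. After rescaling, 17 were higher and 6 lower. The co-chaperone Stip1 (2.59 ± 0.20), the Hsp110 protein Hsph1 (1.94 ± 0.17) and the chaperonin subunit Cct7 (2.49 ± 0.24) were higher. Another chaperonin subunit, Cct2, was not called, at 264, 272 and 263 FPKM in the polysome libraries, against 262, 310 and 325 FPKM in the monosome libraries (-0.16 ± 0.22, adjusted p = 0.554). Its groups overlapped. The Hsp90 gene Hsp90ab1 was lower, with 835, 857 and 873 FPKM in the polysome libraries, against 1437, 1636 and 1804 FPKM in the monosome libraries (-0.92 ± 0.22). Hspe1, the small partner of the mitochondrial chaperonin (-1.49 ± 0.26), and the prefoldin subunit Pfdn5 (-1.16 ± 0.24) were lower as well.
Ubb, one of the genes for ubiquitin, had the largest increase among genes that met the naming rule, with 931, 1812 and 1261 FPKM in the polysome libraries, against 56.4, 172 and 150 FPKM in the monosome libraries (3.49 ± 0.57, adjusted p = 8.15e-05). Every polysome value exceeded every monosome value, and library 0 was the lowest in either pool. Other large increases were those of Prdx1, a peroxide reductase (3.04 ± 0.31), Ndn, the imprinted gene for necdin (3.10 ± 0.22), Prpf19 of the spliceosome (2.98 ± 0.36) and the SNARE protein gene Snap47 (3.04 ± 0.23).

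Of 16 glycolytic enzymes, 15 were higher and 1 lower (13 and 1 after rescaling), median 1.93. Hexokinase Hk1 measured 63.6, 51.3 and 64.1 FPKM in the polysome libraries, against 12, 10.2 and 12.6 FPKM in the monosome libraries (2.26 ± 0.19), and aldolase Aldoc, lactate dehydrogenase Ldhb and pyruvate kinase Pkm2 had 2.56 ± 0.25, 1.99 ± 0.22 and 1.86 ± 0.24. Gapdh was called narrowly, at 0.69 ± 0.28 (adjusted p = 0.041); the call ended with a block on replicate number (adjusted p = 0.0537), after rescaling and when any 1 of the 6 libraries was left out. Gpi1, glucose phosphate isomerase, was lower (-0.89 ± 0.26).
Of 75 nuclear genes for the respiratory chain, 32 were higher (42.7%, against 39.5% of all genes) and 22 lower (29.3%, against 20.3%), with a median of 0.41. After rescaling, 25 were higher and 26 lower. The ATP synthase subunit Atp5b, the succinate dehydrogenase subunit Sdha and the complex I subunits Ndufs1 and Ndufv1 were higher, at 2.60 ± 0.25, 2.26 ± 0.18, 2.09 ± 0.18 and 2.27 ± 0.19. Cox8a, a small subunit of cytochrome oxidase, measured 65.6, 67.6 and 80.9 FPKM in the polysome libraries, against 537, 400 and 450 FPKM in the monosome libraries (-2.67 ± 0.34, adjusted p = 6.45e-06). Other small subunits called lower were Cox4i1 (-0.96 ± 0.22) and, in complex I, Ndufa6 (-2.19 ± 0.27) and Ndufb9 (-1.89 ± 0.22). Mitochondrial ribosomal proteins, whose mRNAs are made in the nucleus and read in the cytosol, were higher for 40 (55.6%) and lower for 9 (12.5%) of 72 (29 and 12 after rescaling), median 0.69. The low median of cytosolic ribosomal proteins was thus not seen in them. Mrpl39 had 2.28 ± 0.25 and Mrps24 -2.71 ± 0.24. Mrpl1 was not called (0.19 ± 0.18), and Mrps2 (0.74 ± 0.21) lost its call after rescaling.
The proton pump of vesicles was higher for 12 (70.6%, against 39.5% of all genes) and lower for 3 (17.6%, against 20.3%) of 17 subunits. After rescaling these were 9 and 3, and 1 was lower without monosome library 0. Atp6v1e1 (2.83 ± 0.20), Atp6v1b2 (2.37 ± 0.20) and Atp6v1h (2.29 ± 0.19), all of the cytosolic part, were higher. The membrane subunit Atp6v0c varied between libraries, with 40.1, 7.62 and 111 FPKM in the polysome libraries, against 18.5, 1.58 and 10.4 FPKM in the monosome libraries. Polysome exceeded monosome within each number, and the adjusted p was 0.119 without and 0.0283 with a block on replicate number (2.04 ± 1.09). Without polysome library 1 the log2 fold change was 3.03 (adjusted p = 0.0328). Cholesterol synthesis enzymes were higher for 13 of 20 and lower for none (10 and 2 after rescaling), among them Hmgcs1 (2.18 ± 0.18), Acat2 (2.71 ± 0.24) and Fdft1 (1.86 ± 0.18).

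Of 14 tubulins and actins, 12 were higher and none lower (9 and 1 after rescaling), median 1.69. Actb, cytoplasmic actin, measured 1611, 1068 and 1778 FPKM in the polysome libraries, against 242, 202 and 263 FPKM in the monosome libraries (2.63 ± 0.26, adjusted p = 7.83e-07), and the neuronal tubulin Tubb3 had 1.77 ± 0.23. Tubb4a and Tubb4b had 2.62 ± 0.23 and 2.68 ± 0.25. Gap43, a protein of growing axon tips, measured 1209, 1060 and 1337 FPKM in the polysome libraries, against 192, 179 and 171 FPKM in the monosome libraries (2.72 ± 0.27). Actin bundling Fscn1 (2.75 ± 0.24), the collapsin response mediator Dpysl5 (2.27 ± 0.21) and the microtubule binder Dcx (1.45 ± 0.39) were higher, and Pfn2, a profilin, was lower (-0.55 ± 0.20), a call that ended without monosome library 1 or 2 or polysome library 0. Motor protein mRNAs were higher for 20 of 27 and lower for none (17 and 2 after rescaling), median 1.44. Kinesin light chain Klc1 measured 345, 278 and 364 FPKM in the polysome libraries, against 43.9, 43.8 and 44.5 FPKM in the monosome libraries (2.86 ± 0.25), and the kinesin Kif5c had 2.06 ± 0.20. The dynactin subunit Dctn1 had 2.43 ± 0.21, and the dynein heavy chain Dync1h1 0.69 ± 0.19, a call that ended after rescaling.

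**Figure D3:**
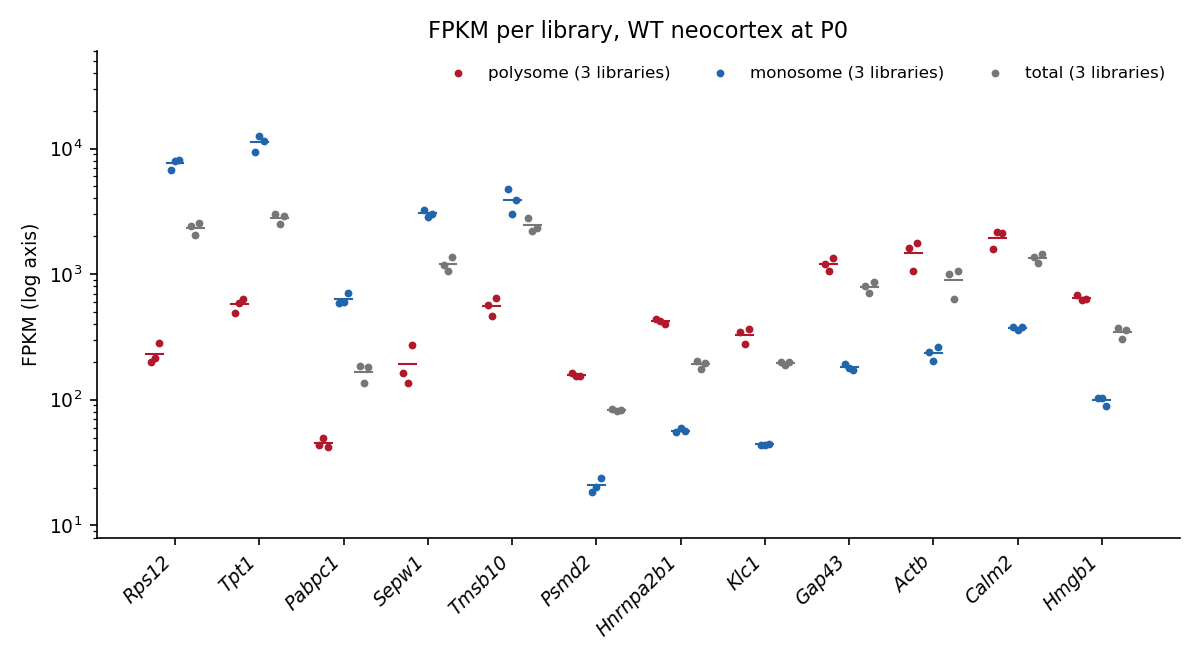
FPKM of 12 genes in each of the 3 polysome, 3 monosome and 3 total RNA libraries of WT neocortex at P0, on a log axis, with the mean as a bar. Rps12, Tpt1, Pabpc1, Sepw1 and Tmsb10 are lower in every polysome library than in every monosome library, and the other 7 genes are higher.

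Presynaptic vesicle proteins were higher for 27 of 37 and lower for 2 (25 and 3 after rescaling), median 1.13. Syn1, which tethers synaptic vesicles, measured 57.1, 50.7 and 58.8 FPKM in the polysome libraries, against 11.5, 12 and 12 FPKM in the monosome libraries (2.14 ± 0.20, adjusted p = 3.91e-07). Snap25 of the fusion complex (2.23 ± 0.30), Nsf, the ATPase that takes the complex apart (2.01 ± 0.18), and Dnm1, the dynamin of vesicle retrieval (2.37 ± 0.17), were higher. The active zone scaffold Erc2 was lower, with 20.1, 17.5 and 21 FPKM in the polysome libraries, against 109, 123 and 110 FPKM in the monosome libraries (-2.49 ± 0.28), and so was the calcium sensor Syt7 (-1.72 ± 0.23). Postsynaptic scaffolds were called at the share of all genes, with 10 higher (40%, against 39.5%) and 5 lower (20%, against 20.3%) of 25 (7 and 6 after rescaling), median 0.38. Nrgn, a calmodulin-binding protein of dendrites, measured 76.6, 89.5 and 175 FPKM in the polysome libraries, against 33.6, 20.4 and 24.5 FPKM in the monosome libraries (2.01 ± 0.35), the kinase Camk2a had 1.30 ± 0.31 and the inhibitory scaffold Gphn 1.77 ± 0.19. Homer2 was lower (-2.18 ± 0.23), and Dlg4, which encodes PSD-95, was not called (0.38 ± 0.26, adjusted p = 0.222).

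Membrane and secreted proteins are made on the endoplasmic reticulum (ER), and the calls of their mRNAs depended on the libraries. Guidance and adhesion receptors were higher for 5 and lower for 3 of 53 (1 and 4 after rescaling), neurotransmitter receptors for 6 and 3 of 28 (4 and 5), ion channels and pumps for 6 and 6 of 38 (3 and 10), and extracellular matrix and secreted proteins for 7 and 3 of 33 (3 and 5). The medians were 0.28, 0.37, 0.13 and 0.27. In that order 9.43, 21.4, 15.8 and 21.2% were higher and 5.66, 10.7, 15.8 and 9.09% lower, against 39.5% and 20.3% of all genes. Shares of guidance and adhesion receptor mRNAs were 0.343, 0.219 and 0.135% of summed FPKM in polysome libraries 0, 1 and 2, against 0.118, 0.108 and 0.133% in monosome libraries 0, 1 and 2. Polysome library 0 stood far above library 2, which was just above the highest monosome library. ER chaperones and translocon genes showed the same spread, at 0.488, 0.388 and 0.281% in polysome and 0.271, 0.224 and 0.283% in monosome libraries. The order was not particular to polysomes. Total RNA libraries 0, 1 and 2 held 0.21, 0.203 and 0.133% for guidance receptors and 0.391, 0.332 and 0.301% for ER genes. In these 5 groups the number called higher ran, over the fits without 1 library, from 1 to 15 for guidance receptors, 2 to 10 for neurotransmitter receptors, 3 to 10 for channels, 3 to 11 for matrix and secreted proteins and 3 to 13 for ER genes. Without polysome library 2, 15 guidance receptors were higher, and without polysome library 0, 1 was. What sets libraries 0 and 2 apart, in polysome and in total RNA, was not tested.
Among single genes, Ncam1, a neural adhesion molecule, had 85.3, 47.4 and 34.6 FPKM in the polysome libraries, against 46.7, 48.6 and 50.1 FPKM in the monosome libraries (0.10 ± 0.44, adjusted p = 0.859). The ER chaperone Hspa5 had 106, 51 and 38.5 FPKM in the polysome libraries, against 33.7, 30.3 and 48.5 FPKM in the monosome libraries and was not called (0.68 ± 0.37, adjusted p = 0.125), though it was without polysome library 2. The following calls held when any 1 library was left out. The GABA receptor subunit Gabra5 was lower, with 24.7, 23.9 and 20.7 FPKM in the polysome libraries, against 63.6, 101 and 106 FPKM in the monosome libraries (-1.89 ± 0.22), while the glutamate receptor subunit Grin1 was higher (1.27 ± 0.27). The growth factor Igf2 was lower (-2.40 ± 0.36), and the lipoprotein Apoe was higher (1.55 ± 0.38).
The calcium channel subunit Cacnb1 (1.71 ± 0.20) was higher. Of 30 ER chaperone and translocon genes, 7 were higher (23.3%, against 39.5% of all genes) and 5 lower (16.7%, against 20.3%) (3 and 5 after rescaling). The translocon subunits Ssr4 (-2.31 ± 0.23) and Sec61g (-1.25 ± 0.30) and the signal recognition subunit Srp9 (-1.92 ± 0.46) were lower, and the signal recognition subunit Srp68 was higher (1.60 ± 0.17).

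**Figure D4:**
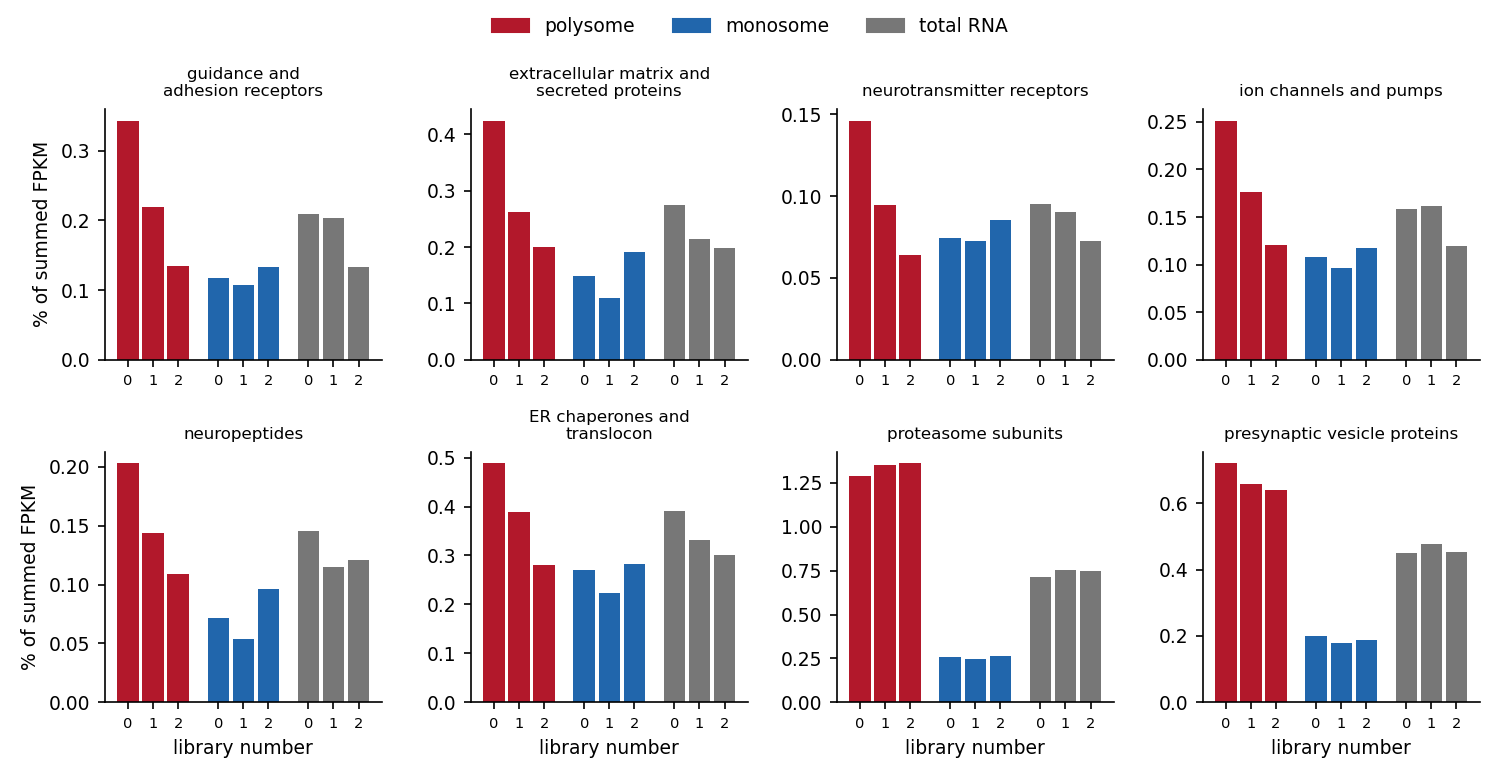
Share of summed FPKM (percent, axes from 0) of 8 gene lists in polysome, monosome and total RNA libraries 0, 1 and 2 of WT neocortex at P0. The first 6 lists hold membrane, secreted or ER proteins and differ between polysome libraries, while proteasome subunits stay between 1.29 and 1.36% there.

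Transcription factors that define neocortical cell types were found on both sides. Deep-layer neuron genes were higher for 8 (50%) and lower for 3 (18.8%) of 16 (5 and 4 after rescaling). Upper-layer genes were higher for 4 (28.6%) and lower for 3 (21.4%) of 14 (3 and 6 after rescaling). Over all genes the shares were 39.5% and 20.3%. Tbr1, a determinant of layer 6 identity, measured 30.1, 32.7 and 32.7 FPKM in the polysome libraries, against 14.3, 16.6 and 13.5 FPKM in the monosome libraries (1.06 ± 0.22, adjusted p = 0.000714), and Bcl11b, which marks subcerebral neurons, had 1.29 ± 0.36. Fezf2, which acts in the same neurons, was lower, with 31.3, 21.7 and 33.6 FPKM in the polysome libraries, against 60.1, 63.1 and 51.2 FPKM in the monosome libraries (adjusted p = 0.000388). Pou3f3 and Pou3f1 of upper layers were higher (1.23 ± 0.18 and 1.75 ± 0.38) and Cux1 was lower (-0.95 ± 0.20). Of 23 general neuronal factors, 7 were higher (30.4%) and 2 lower (8.7%) (6 and 2 after rescaling), median 0.31. Sox4 (2.20 ± 0.30), Bhlhe22 (1.70 ± 0.28) and Id2 (1.28 ± 0.21) were higher, while Zeb1, a repressor of neuronal differentiation (-1.31 ± 0.24), was lower. Of 15 interneuron genes, 5 were higher (33.3%, against 39.5% of all genes) and none lower (3 and 3 after rescaling; 3 and 1 without monosome library 0). They included the GABA enzyme Gad1 (1.15 ± 0.30), whose call ended with a pseudocount of 0.1.
Of 26 radial glia and astrocyte genes, 10 were higher (38.5%, against 39.5% of all genes) and 2 lower (7.69%, against 20.3%), and none was lower without monosome library 2 or polysome library 0. Examples were the fatty acid binding protein Fabp7 at 1.95 ± 0.29, glutamine synthetase Glul at 2.08 ± 0.18 and the metallothionein Mt3 at -1.18 ± 0.35. Values of Mt3 overlapped between the pools, and its call ended without monosome library 2 or polysome library 0. Of 7 oligodendrocyte lineage genes, 4 were higher (57.1%) and 1 lower (14.3%), the same after rescaling. The factors Olig1, Olig2 and Sox10 were among the higher (1.11 ± 0.28, 1.44 ± 0.23 and 1.32 ± 0.19). Of 13 microglia and macrophage genes, 5 were higher (38.5%) and 2 lower (15.4%), but none was higher after rescaling or without monosome library 1. Without polysome library 0, 1 was higher, and without any other 1 library at most 5 were. Tyrobp, a signalling adaptor of microglia, measured 5.28, 4.97 and 4.69 FPKM in the polysome libraries, against 39.1, 27.6 and 37.3 FPKM in the monosome libraries (-2.56 ± 0.21), while the complement gene C1qc of the same cells had 0.72 ± 0.23, a call that ended after rescaling and without monosome library 1.

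Splicing proteins were higher for 39 (65%, against 39.5% of all genes) and lower for 10 (16.7%, against 20.3%) of 60 (36 and 12 after rescaling), median 1.36. Hnrnpa2b1 measured 438, 420 and 402 FPKM in the polysome libraries, against 55.1, 59.3 and 56.2 FPKM in the monosome libraries (2.86 ± 0.20), and Hnrnpk and the serine-rich factor Srsf1 had 2.46 ± 0.21 and 1.47 ± 0.21. Within the Sm ring of the spliceosome, Snrpb (3.13 ± 0.35) and Snrpd3 (2.98 ± 0.33) were higher and the smaller Snrpf (-1.63 ± 0.32) and Snrpg lower. Snrpg measured 109, 170 and 150 FPKM in the polysome libraries, against 973, 940 and 927 FPKM in the monosome libraries (-2.74 ± 0.32, adjusted p = 3.53e-06), so partners of a single ring stood at either end of the range. Chromatin regulators were higher for 29 (64.4%) and lower for 5 (11.1%) of 45 (21 and 6 after rescaling), and higher for 25 to 28 when 1 library was left out. The remodelling subunits Smarcb1 (2.58 ± 0.26) and Smarce1 (2.11 ± 0.23) and the demethylase Kdm1a (1.97 ± 0.16) were higher, and the Polycomb genes Bmi1 (-1.71 ± 0.19) and Suz12 (-1.28 ± 0.21) were lower. Neuronal RNA-binding proteins were near all genes, with 20 higher (45.5%, against 39.5%) and 9 lower (20.5%, against 20.3%) of 44 (16 and 13 after rescaling), median 0.26. The lower count was 5 without monosome library 1 or polysome library 0. The stress granule protein G3bp2 (2.02 ± 0.16) and Fxr2 (1.71 ± 0.16), a relative of the fragile X protein, were higher. Msi1, a translational regulator of neural stem cells, measured 14.1, 13.4 and 21.1 FPKM in the polysome libraries, against 96.2, 103 and 92.4 FPKM in the monosome libraries (-2.54 ± 0.18), and the deadenylase Cnot7 (-1.87 ± 0.22) was lower as well. Replication-independent histones were higher for 8 of 9 (6 after rescaling, and 6 to 8 when 1 library was left out), with H3f3b at 1.87 ± 0.29, and H2afv was lower (-1.85 ± 0.26). Cell cycle genes were higher for 24 and lower for 1 of 37 (19 and 1 after rescaling; none lower without monosome library 2 or polysome library 0 or 2), with the inhibitor Cdkn1b at 1.82 ± 0.18 and the replication helicase subunit Mcm3 at 1.71 ± 0.18. Immediate early genes, which stimuli induce, were higher for 8 (53.3%) and lower for 4 (26.7%) of 15 (6 and 4 after rescaling), and lower for 2 without polysome library 0. Within the Jun family, Jun was higher (1.22 ± 0.25), and Jund measured 3.81, 2.74 and 7.18 FPKM in the polysome libraries, against 19.5, 12.5 and 18.1 FPKM in the monosome libraries (-1.72 ± 0.27). Zinc finger genes named Zfp and a number numbered 303, with 67 higher (22.1%) and 60 lower (19.8%) (37 and 94 after rescaling) and a median of 0.01.

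Iron-responsive elements are hairpins to which iron regulatory proteins bind, blocking translation when in the 5′ UTR. Of 10 such mRNAs, 6 were lower and none higher (the same after rescaling), median -1.08, and 1 was higher without monosome library 1 or polysome library 2. The ferritin chain Fth1 measured 168, 118 and 193 FPKM in the polysome libraries, against 552, 860 and 742 FPKM in the monosome libraries (-2.17 ± 0.29, adjusted p = 1.36e-05), and the iron exporter Slc40a1 (chromosome 1, 45908070 to 45926532, GRCm38) measured 2.04, 1.16 and 1.06 FPKM in the polysome libraries, against 11.9, 20 and 17.1 FPKM in the monosome libraries (-2.83 ± 0.20). Ferritin mRNAs stood higher in total RNA than in either pool. Total RNA held 1228, 1049 and 1257 FPKM of Fth1 and 1908, 1584 and 1921 FPKM of Ftl1, the light chain, which measured 252, 174 and 351 FPKM in the polysome libraries, against 810, 960 and 916 FPKM in the monosome libraries. The 10 mRNAs took 0.139, 0.0996 and 0.152% of summed FPKM in polysome and 0.261, 0.323 and 0.294% in monosome libraries, and 0.681, 0.643 and 0.691% in total RNA.
Of 13 mRNAs with regulatory upstream open reading frames, which divert ribosomes before the main coding sequence, 4 were higher (30.8%) and 5 lower (38.5%). Over all genes these shares were 39.5% and 20.3%. After rescaling 3 were higher and 5 lower, and 3 were lower without monosome library 1 or polysome library 1. The stress factors Atf4 and Ddit3 were lower, Atf4 with 32.4, 39 and 46.5 FPKM in the polysome libraries, against 136, 116 and 110 FPKM in the monosome libraries (-1.60 ± 0.25) and Ddit3 at -1.70 ± 0.22. Azin1, an inhibitor of antizyme, and the heme-regulated kinase Eif2ak1 were higher, at 1.89 ± 0.15 and 2.14 ± 0.21. Selenoprotein mRNAs, in which a stop codon is read as selenocysteine, were higher for 6 (35.3%, against 39.5% of all genes) and lower for 6 (35.3%, against 20.3%) of 17. Sepw1 measured 164, 137 and 272 FPKM in the polysome libraries, against 3268, 2852 and 3012 FPKM in the monosome libraries (-4.05 ± 0.33), and the glutathione peroxidase Gpx4 had -2.69 ± 0.25. Thioredoxin reductase Txnrd1 (2.01 ± 0.28) and Selk (1.20 ± 0.20) were higher.
Non-coding RNAs lay towards the monosome pool as a class by GENCODE type: of 249 long non-coding genes, 18 were higher and 139 lower (12 and 163 after rescaling), median -0.75, against 4740 higher and 2250 lower of 11665 protein-coding genes, median 0.33. The imprinted transcripts Rian (-4.84 ± 0.35), H19 (-4.30 ± 0.42) and Meg3 (-2.95 ± 0.24) were lower. Peg13, also imprinted, was the single listed long non-coding RNA called higher, with 102, 93.4 and 89.5 FPKM in the polysome libraries, against 27.9, 27.5 and 27.7 FPKM in the monosome libraries (1.74 ± 0.25). Of 20 hosts of small nucleolar RNAs, 18 were lower and 1 higher, median -2.64, with none higher after rescaling. They included Gas5 (-3.73 ± 0.32) and Snhg6 (-4.28 ± 0.49).

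Genes were also grouped by the length of their protein. Genes of fewer than 150 amino acids were higher in 128 and lower in 349 of 776 cases, median -0.44. The medians were 0.24 from 150 to under 300, 0.39 from 300 to under 600, 0.42 from 600 to under 1200 and 0.36 at 1200 or more amino acids. Without ribosomal protein genes, the shortest class had 127 higher and 312 lower of 736, median -0.37. Across 11667 genes Spearman's coefficient with protein length was 0.13 and with transcript length 0.01, over the same 6 libraries. Short proteins were not of one kind. The thymosins Tmsb10 and Tmsb4x, which bind actin, were lower, Tmsb10 with 565, 465 and 648 FPKM in the polysome libraries, against 4790, 2996 and 3887 FPKM in the monosome libraries (-2.78 ± 0.28) and Tmsb4x at -1.93 ± 0.28. The calmodulin gene Calm2 measured 1573, 2165 and 2108 FPKM in the polysome libraries, against 380, 361 and 381 FPKM in the monosome libraries (2.36 ± 0.25), in the opposite direction. The chromatin protein Hmgb1, of the next class, from 150 to under 300 amino acids, had 2.70 ± 0.24.

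**Figure D5:**
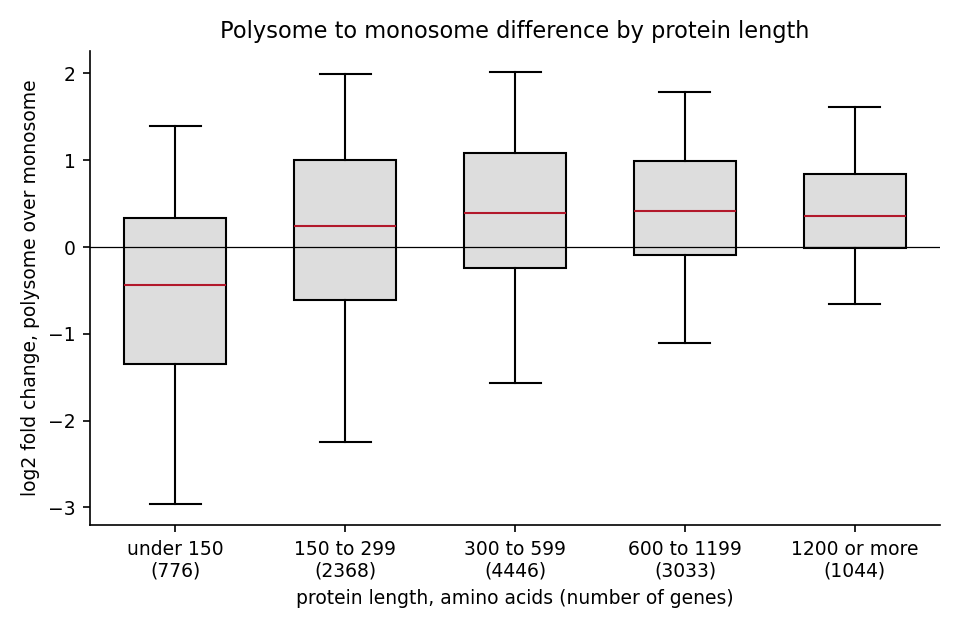
Log2 fold change of polysome over monosome RNA by protein length, for the 11667 tested genes with an annotated coding length. Boxes span the middle of the genes with the median in red, whiskers reach the 5th and 95th percentiles, and the median is lowest, -0.44, under 150 amino acids.

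Total RNA of the same age gives each pool's own position, from libraries that the comparisons share. Large subunit ribosomal proteins had a median log2 fold change of -1.38 for polysome over total RNA and 1.47 for monosome over total RNA. Proteasome subunits had 0.76 and -1.45, and neurite cytoskeleton genes 0.57 and -1.24. Iron-responsive mRNAs had -0.32 for polysome and 0.02 for monosome over total RNA. Ferritin Fth1 had log2 fold changes of -2.90 ± 0.29 for polysome and -0.73 ± 0.29 for monosome over total RNA, the second not called (adjusted p = 0.0618).

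The same pools of WT neocortex at E13, with 2 libraries each, show where the P0 pattern differed with age. At E13, 3951 genes (32.6%) were higher and 2515 (20.7%) lower in polysome RNA. The difference between ages was called for 366 genes (3.02%) in the direction of polysomes at P0 and for 147 (1.21%) in the other. Presynaptic vesicle genes were higher in 9 of 37 cases and lower in none, and neurite cytoskeleton genes in 3 of 28 and none. Dnm1, the member met by the naming rule, had log2 fold changes of 2.37 ± 0.17 at P0 and 1.34 ± 0.21 at E13, a difference of 1.03 ± 0.27 (adjusted p = 0.0457). Prrt2, a presynaptic membrane protein, measured 65.6, 50.5 and 71 FPKM in the polysome libraries, against 15.3, 17.4 and 16.1 FPKM in the monosome libraries at P0. At E13 it measured 3.06 and 4.64 FPKM in the polysome libraries, against 7 and 5.64 FPKM in the monosome libraries. The order of the pools was thus opposite at the ages, and the difference was 2.47 ± 0.30 (adjusted p = 0.00142). Msi1, given above for P0, measured 125 and 121 FPKM in the polysome libraries, against 168 and 173 FPKM in the monosome libraries at E13, with a difference of -2.07 ± 0.28 (adjusted p = 0.0027). Of the iron-responsive mRNAs, the difference was called for 2, lower at P0 in both, and Slc40a1 had -1.85 ± 0.31. Of 776 genes under 150 amino acids, 51 were higher and 5 lower. The counts rest on few libraries. Without E13 monosome library 1 they were 1510 and 417, without E13 polysome library 1 591 and 533, without E13 monosome library 0 71 and 42 and without E13 polysome library 0 81 and 31. Without P0 monosome library 0, 1 or 2 they were 170 and 81, 119 and 53, and 75 and 38, and without P0 polysome library 1 or 2 156 and 66, and 119 and 74. Presynaptic genes called higher then ranged from 0 to 15, and with a pseudocount of 0.1 there were 5. The log2(FPKM + 1) scale compresses differences of genes with low values, such as those of Dnm1 and Prrt2 at E13.

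Neocortex labelled HuR cKO (cKO below) at P0, with 3 polysome and 2 monosome libraries in a separately scaled table, served for a test of the difference between genotypes. No difference of the polysome to monosome fold change, WT minus cKO, was called by limma among 12233 genes (0%). At an unadjusted p under 0.05 there were 308, and the smallest adjusted p was 0.863. A p above the threshold does not show that the pools were alike. Elavl1, which encodes HuR, measured 21.5, 26.2 and 21.8 FPKM in the polysome libraries, against 10.3, 12.3 and 8.28 FPKM in the monosome libraries in WT. In libraries labelled HuR cKO it measured 16, 19 and 22.6 FPKM in polysome columns c0, c1 and c2, against 29.9 and 24.5 FPKM in monosome columns c0 and c1, so its mRNA was present there. Its log2 fold change was 1.11 ± 0.30 in WT and -0.49 in cKO, a difference of 1.60 ± 0.40 (adjusted p = 0.863). Of 12001 genes tested in both tables, 3035 were higher in both, 63.5% of the WT and 98.8% of the cKO calls, and 2280 lower in both, 93.3% of the WT and 78.8% of the cKO calls. None was called in opposite directions. Over all genes in cKO, 3081 of 12302 (25%) were higher and 2927 (23.8%) lower. These counts are on the deposited scales, where the median log2 fold change was 0.3 in WT and 0.0 in cKO. After rescaling, 29.5% of genes were higher and 26.8% lower in WT. How far this centring accounts for the unequal shares above and the fold changes below was not tested. Rps12 had -5.04 ± 0.35 in WT and -5.10 ± 0.45 in cKO, Psmd2 2.86 ± 0.17 in WT and 2.34 ± 0.32 in cKO, and Gap43 2.72 ± 0.27 in WT and 2.43 ± 0.33 in cKO.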

How the data were processed

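The authors deposited FPKM per gene for each library. Per the submitters' processing notes, TopHat2 2.0.6 with Bowtie2 2.0.5.0 and Cuffdiff were used on mm10 (GRCm38). WT and HuR cKO libraries are in separate tables, each used on its own scale except in the fit of the difference between genotypes. Of 23284 rows, 26 whose names were bare numbers were left out. The kit keeps no strand, so overlapping antisense genes and near-identical copies may share reads. Depth in fragments is not given.

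Values were taken as log2(FPKM + 1), a scale that understates changes of low genes, and genes with a mean of at least 1 FPKM over the 15 WT libraries were tested with limma 3.58.1 in R 4.3.3, with an intensity trend and all WT groups in the fit. P-values were two-sided and Benjamini-Hochberg adjusted over all genes tested, and a gene was called under 0.05. Errors are standard errors of the fit (SE). The test was checked on simulated data. Single shares were compared by an exact two-sided permutation test over libraries. Deviations from the group means correlated at 0.226, 0.395 and 0.207 between polysome and monosome libraries of the same number, and at -0.205 to -0.0589 between unequal numbers. The labels do not say what a number marks, so the main fit and the permutation test used no pairing. A block on replicate number was run as an alternative.

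Genes named are the 10 largest called changes in either direction with a mean of at least 5 FPKM in either pool, no 0 and no overlap, leaving out predicted, ribosomal protein and globin genes. For each list they are the first 2 members and up to 3 called in either direction by adjusted p, and for the difference between ages up to 5 in either direction. Other named genes were chosen after their values were seen. The comparison and the gene lists were chosen with earlier results of these data known. Of 1265 list members, 1214 matched by symbol and 33 by synonym. Protein lengths are GENCODE coding lengths, matched for 96.2% of genes tested. Some genes that met the rule are not reported here.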

Additional observations from a re-analysis of the deposited data

Results flagged for a closer look

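For 10 genes, chosen by adjusted p among those called, the polysome to monosome difference at P0 differed from that at E13, by limma's test of P0 minus E13 adjusted over all genes. Towards polysomes at P0 lay Prrt2, a presynaptic membrane protein, with 2.47 ± 0.30 on the log2 scale (SE; adjusted p = 0.00142), and Ptk2b, a calcium-responsive tyrosine kinase, with 2.49 ± 0.33 (adjusted p = 0.0027). The ubiquitin ligase Rnf14 had 2.11 ± 0.29, the aldehyde reductase Akr1a1 2.09 ± 0.30 and the endosomal fusion protein Stx7 1.98 ± 0.28. Ptk2b measured 37.9, 29.8 and 25 FPKM in the polysome libraries, against 5.49, 5.06 and 3.54 FPKM in the monosome libraries at P0. At E13 it measured 0.0213 and 0.212 FPKM in the polysome libraries, against 0.225 and 0.017 FPKM in the monosome libraries, all near 0, where log2(FPKM + 1) cannot show a difference between pools.

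In the other direction lay Msi1 with -2.07 ± 0.28 (adjusted p = 0.0027), the zinc finger gene Zc3h7b with -2.09 ± 0.26, Tcerg1l with -2.36 ± 0.28, the purine synthesis enzyme Adss with -2.24 ± 0.29 and the aquaporin Aqp11 with -2.26 ± 0.31. Adss measured 41.5, 38.4 and 44.6 FPKM in the polysome libraries, against 106, 147 and 129 FPKM in the monosome libraries at P0. At E13 it measured 57.1 and 45 FPKM in the polysome libraries, against 28.4 and 35.6 FPKM in the monosome libraries. These 10 kept their call and direction in the 13 other settings run, which include leaving out each P0 and each E13 library of the pools.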

How the results depend on the processing

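Counts over all genes for polysome against monosome RNA at P0 stayed within 1.5 times under the settings run, with 4275 to 4691 higher and 2212 to 2312 lower when 1 library was left out, and 5013 and 2584 with a replicate block. Among named genes the block changed the calls of Gapdh and Atp6v0c (log2 fold change 2.04, adjusted p = 0.0283) and no other. Rescaling reversed 2 uncalled genes, Mrpl1 (-0.08) and Ncam1 (-0.23, and from -0.25 to 0.39 when 1 library was left out), and Eif4g1 (0.36) and Hspa5 (0.98) were called without the filter and without polysome library 2. Counts of list members called in either direction moved more, by over 1.5 times in up to 7 of 44 lists in a setting, that one being a mean of at least 5 FPKM. The difference between ages moved most among the counts over all genes. It was called for 513 genes, and for 306 (231 higher, 75 lower) with a pseudocount of 0.1. The lower count was 95 with a mean of at least 5 FPKM. When 1 library was left out, the totals ran from 112 to 1927, with 71 to 1510 higher and 31 to 533 lower. Leaving out E13 libraries and a filter on the 6 libraries alone were added after seeing the data. In cKO, leaving out 1 library gave 2047 to 2706 higher, the lowest without monosome column c1, and the difference between genotypes was called for 1 gene without that column, against 0. With 2 libraries in a group, a lone one is assumed to vary like the others. The cause of these changes was not tested. Depth limits genes of low FPKM, for which no interval can be given.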
